A study of Homo sapiens with 5 samples.

Results

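The 10 genes described here govern how leukemic cells take up, activate, and inactivate cytarabine (araC) and how they meet anthracyclines such as daunorubicin (DNR). They were chosen by name as *SLC29A1*, *DCK*, *CDA*, *SAMHD1*, *NT5C2*, *RRM1*, *RRM2*, *TOP2A*, *TOP2B*, and *ABCB1*, 10 of the 27328 genes in the count table, and all 10 had a row there and passed the filter on low counts. Their mRNAs were measured by RNA-seq in TF-1, a human AML cell line, in 5 libraries. For each library, 4 clones with Cas9 and an sgRNA, each grown from 1 cell, had been pooled. The 2 control pools (sgCtrl_1 and sgCtrl_2) carried an sgRNA against *Renilla luciferase*, and the 3 *MTSS1* knockout pools carried sgMTSS1_1, sgMTSS1_2, or sgMTSS1_3 and are numbered accordingly, so each knockout replicate has its own sgRNA. Loss of the protein had been checked by immunoblot for each knockout clone, and the authors removed 1 further pool of each group by an outlier test. No drug was named for these cultures, which were grown overnight before RNA extraction. The question was whether loss of MTSS1, which the study examined for its part in the response to araC and DNR, came with a different mRNA level of the genes that handle these drugs.

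AraC is a deoxycytidine analogue. It enters the cell through the equilibrative nucleoside transporter ENT1, encoded by *SLC29A1*, and becomes active only after phosphorylation, of which deoxycytidine kinase (DCK) performs the first, rate-limiting step. Cytidine deaminase (CDA), the nucleotidase NT5C2, and the dNTP hydrolase SAMHD1 each remove the drug or its phosphorylated forms, and ribonucleotide reductase, built from the subunits RRM1 and RRM2, supplies the natural dNTPs that compete with it. Anthracyclines trap topoisomerase II on DNA, for which TOP2A and TOP2B are the targets, and are pumped out by P-glycoprotein, encoded by *ABCB1*.

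Total counts were 2849979 and 3408827 in the control libraries and between 5442639 and 8854899 in the knockout libraries. Of the 15 markers fixed for TF-1, 13 were above 10 CPM in every library, where CPM is the normalized read count, scaled to library size by TMM. Of the 8 markers of other blood cells, 4 had a row, and their summed level was 8.75 to 19.2 CPM against 2030 to 2850 CPM for the TF-1 markers. *MTSS1* itself was at 204 and 87.9 CPM in sgCtrl_1 and sgCtrl_2 and at 104, 139, and 49.9 CPM in sgMTSS1_1 to sgMTSS1_3. The paper places the targets of sgMTSS1_1 and sgMTSS1_2 in the first exon and judged the knockout by protein. The 3′ counts of the mRNA therefore do not check the knockout. The last exon of *MTSS1* also overlaps *NDUFB9* on the opposite strand. *NDUFB9* was at 326 and 211 CPM for sgCtrl and at 574 to 803 CPM for sgMTSS1, and its part in the *MTSS1* counts was not tested. Libraries came from the QuantSeq 3′ kit, which yields reads near the poly(A) tail. CPM was thus not divided by transcript length. Levels of different genes can be compared only as far as the reads of each 3′ end were counted for its gene, which was not tested. Fewer cells of a kind and less mRNA per cell cannot be told apart in such pools.

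Because *RRM1* was the 1 gene of the 10 that passed the test, the promoters of *RRM1*, of its partner *RRM2*, and of *TOP2A*, a gene of dividing cells, are shown first. The windows run from 250 bases before to 50 bases after the RefSeq start site, 5′ to 3′ on the strand of the gene (RefSeq, GRCh38.p14), at chr11:4094435-4094734 on the plus strand for *RRM1*, chr2:10122489-10122788 on the plus strand for *RRM2*, and chr17:40417847-40418146 on the minus strand for *TOP2A*. Capitals mark CCAAT, or ATTGG where the match is on the other strand.
RRM1: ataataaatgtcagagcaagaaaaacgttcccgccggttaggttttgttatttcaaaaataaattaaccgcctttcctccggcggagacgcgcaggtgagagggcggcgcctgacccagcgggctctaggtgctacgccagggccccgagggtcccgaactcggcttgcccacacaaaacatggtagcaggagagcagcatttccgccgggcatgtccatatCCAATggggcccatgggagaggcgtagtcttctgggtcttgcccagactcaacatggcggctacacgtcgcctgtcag
RRM2: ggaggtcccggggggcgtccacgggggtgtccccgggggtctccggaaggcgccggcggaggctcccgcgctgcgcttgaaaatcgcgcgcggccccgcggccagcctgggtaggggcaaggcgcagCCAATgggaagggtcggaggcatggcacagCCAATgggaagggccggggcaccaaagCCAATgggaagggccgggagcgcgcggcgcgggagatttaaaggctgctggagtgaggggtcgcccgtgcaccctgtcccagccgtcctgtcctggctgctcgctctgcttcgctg
TOP2A: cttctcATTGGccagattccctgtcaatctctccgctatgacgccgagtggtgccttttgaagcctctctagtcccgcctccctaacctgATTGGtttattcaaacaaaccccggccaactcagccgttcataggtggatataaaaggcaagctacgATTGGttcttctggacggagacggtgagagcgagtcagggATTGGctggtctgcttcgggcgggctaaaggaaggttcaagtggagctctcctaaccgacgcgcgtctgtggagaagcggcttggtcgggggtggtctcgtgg
The *RRM1* window held 1 CCAAT match, the *RRM2* window 3, and the *TOP2A* window 4. Of the *RRM2* windows, the one with the most CCAAT matches is shown, so its count of 3 follows from that choice. CCAAT was found at least once, on either strand, in 34.6% of 35116 promoter windows of this length, without such a choice. The letters TTTGAA, present in 15.2% of all windows, occurred once in *RRM1*, not in this window of *RRM2*, and 2 times in *TOP2A*. GGGCGG, found in 45.0% of windows, occurred once each in *RRM1* and *TOP2A* and not in this window of *RRM2*. None of the 3 windows held an E2F site, searched as TTTCCCGC, TTTCGCGC, TTTGCCGC, or TTTGGCGC (3.31% of windows), or a CArG box (1.29% of windows). These matches describe the letters only. All 10 genes had at least 1 window in the table, 16 in all, and RefSeq gives *RRM2* another window upstream with 1 CCAAT.

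*RRM1* rose in the knockout and was the only 1 of the 10 genes that was differentially expressed, which required an adjusted p under 0.05 together with a log2-fold change beyond 1 in either direction. By this rule, 5.18% of all 14391 tested genes were called in either direction and 4.17% were higher in the knockout. The other 9 genes did not pass. Of these, 5 had a negative log2-fold change and *TOP2A* was at 0.00. Their median, *RRM1* included, was −0.12 on the log2-fold scale, against −0.03 for all tested genes. Every knockout pool lay above both control pools for *RRM1* and *RRM2*, a position taken by 22.2% of all tested genes. Every knockout pool lay below both for *SAMHD1* and *NT5C2*, a position taken by 19.2%. For the remaining 6 genes, the pools of the groups overlapped.

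**Figure D1:**
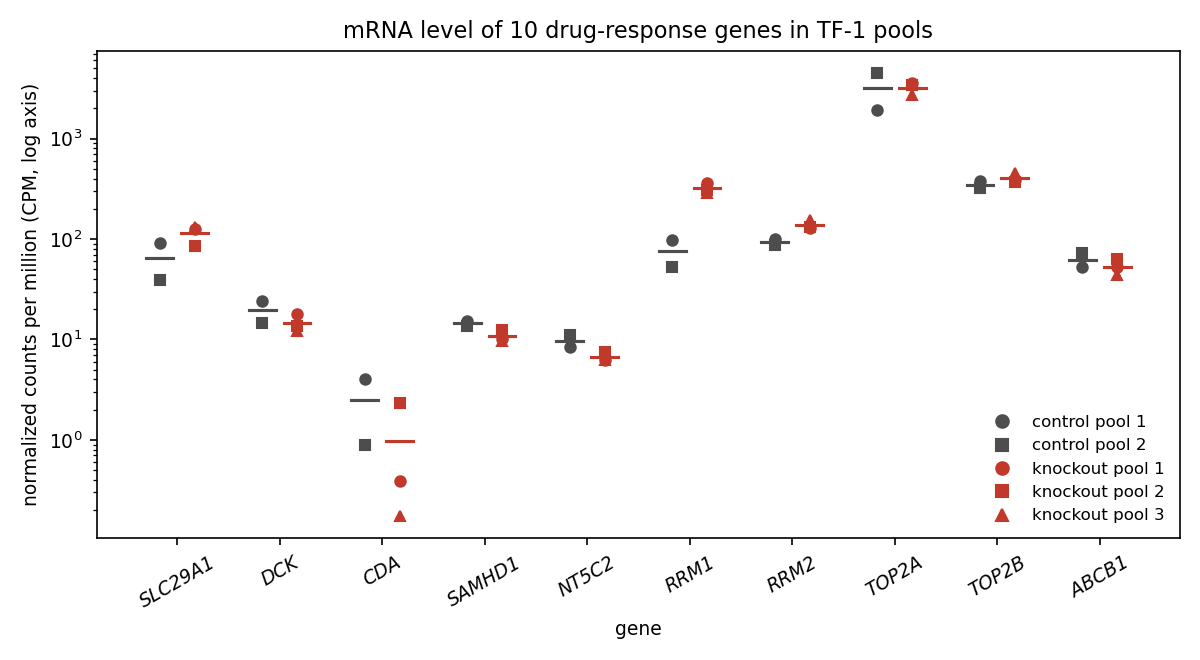
mRNA level of the 10 genes in each of the 5 TF-1 pools, as normalized CPM on a log axis, with control pools in grey, knockout pools in red, and a bar at each group mean (n = 2 control, n = 3 knockout). *RRM1* is at 52.7 and 98.5 CPM in the control pools and between 290 and 361 CPM in the knockout pools, while *CDA*, between 0.174 and 4.06 CPM, is near the smallest measurable level and *TOP2A*, between 1920 and 4510 CPM, is the most abundant of the 10.

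Ribonucleotide reductase reduces ribonucleotides to deoxyribonucleotides, and RRM1 is the large subunit that carries the catalytic and the regulatory sites. *RRM1* (ENSG00000167325, chromosome 11, 4094707 to 4138932, plus strand) had 315 and 177 counts in sgCtrl_1 and sgCtrl_2 and 2782, 1695, and 1664 counts in sgMTSS1_1 to sgMTSS1_3. As normalized levels these were 98.5 and 52.7 CPM for sgCtrl and 361, 306, and 290 CPM for sgMTSS1. The lowest knockout pool was thus well above the highest control pool, and in proportion to their level the knockout pools lay closer to each other than the control pools did. The mean was 75.6 ± 32.3 CPM for sgCtrl (SD, n = 2) against 319 ± 37.3 CPM for sgMTSS1 (SD, n = 3). The log2-fold change was 2.08 (SE 0.37; quasi-likelihood test in edgeR, Benjamini-Hochberg adjusted p = 0.0182), a 4.22-fold difference with a 95% interval of 2.38 to 7.47.

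*RRM1* was higher in the knockout in every fit, but it missed the threshold when knockout pool 1 or 3 was left out. Without knockout pool 1, the log2-fold change was 1.97 (quasi-likelihood test in edgeR, adjusted p = 0.0677), and without knockout pool 3 it was 2.19 (0.0519). Over all alternatives, the adjusted p ranged from 3.21e-06 in DESeq2 to 0.0677. With all libraries thinned to the smallest total of 2849979 counts, the log2-fold change was 2.04 (quasi-likelihood test in edgeR, adjusted p = 0.0159). The share of mitochondrially encoded counts was 13.9% and 8.63% in the control and 6.71% to 7.44% in the knockout libraries. That of ribosomal protein mRNAs was 7.55% and 9.30% in the control and 11.9% to 17.7% in the knockout libraries. The part of either share in the result was not tested. The last exon of *RRM1* overlaps *RRM1-AS1* on the opposite strand, and *RRM1-AS1* had 0 to 2 counts in each library. The number of reads shared with a transcript on that strand cannot be told without knowing whether the count used strand, which is not given in the sources used here.

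RRM2 is the small, radical-bearing subunit, whose mRNA is known to peak in S phase. *RRM2* (ENSG00000171848, chromosome 2, 10120698 to 10211725, plus strand) was at 101 and 87.9 CPM in sgCtrl_1 and sgCtrl_2 and at 128, 133, and 156 CPM in sgMTSS1_1 to sgMTSS1_3. All 3 knockout pools were above both control pools. The means were 94.3 ± 9.03 CPM for sgCtrl (SD, n = 2) against 139 ± 15.0 CPM for sgMTSS1 (SD, n = 3), but the log2-fold change of 0.56 (SE 0.29; adjusted p = 0.272, quasi-likelihood test in edgeR) did not pass. Its 95% interval was −0.07 to 1.20, or 0.949-fold to 2.30-fold. *RRM2* has 3 pseudogenes named after it in the annotation. Of these, *RRM2P2* had at most 2 counts in any library.

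The balance of the subunits was read from raw counts within each library, where scaling plays no part. The ratio of *RRM2* to *RRM1* counts was 1.02 and 1.67 for sgCtrl against 0.355, 0.436, and 0.540 for sgMTSS1. In the control, counts of the 2 subunits were thus about level or higher for *RRM2*, and in every knockout pool they were higher for *RRM1*. How many other gene pairs separate the groups in this way was not counted. The mean log2 ratio was 0.38 ± 0.50 (SD, n = 2) in control and −1.19 ± 0.30 (SD, n = 3) in knockout pools, and the ratio was 0.335 of that in the control. The exact permutation test, made two-sided by doubling the smaller tail, gave p = 0.2, the smallest it can give when so doubled, and 0.6 after adjustment over the 6 ratios examined. This test therefore could not pass 0.05. The direction held with each library left out in turn (log2 difference −1.93 to −1.22).

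**Figure D2:**
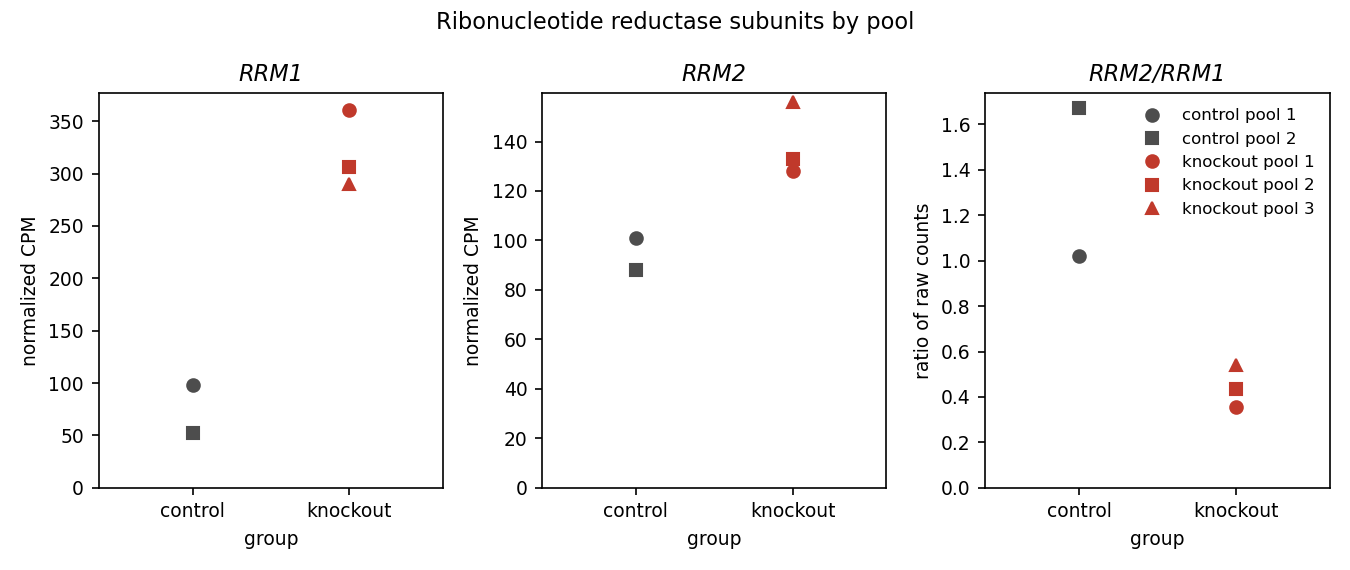
Normalized CPM of *RRM1* and *RRM2* and the ratio of their raw counts in each pool, with control pools in grey and knockout pools in red and 1 symbol per pool number. All axes start at 0, and the knockout pools are above the control pools for both subunits and below them for the ratio, which is at most 0.540 in the knockout and at least 1.02 in the control.

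Among the genes of araC uptake and activation, none was differentially expressed. *SLC29A1* (ENSG00000112759, chromosome 6, 44219553 to 44234142, plus strand), the transporter gene, was at 90.7 and 39.0 CPM in sgCtrl_1 and sgCtrl_2 and at 126, 85.2, and 132 CPM in sgMTSS1_1 to sgMTSS1_3. Knockout pool 2 lay below control pool 1, so the groups overlapped, and control pool 2 was the lowest of all 5. The means were 64.9 ± 36.5 CPM for sgCtrl (SD, n = 2) against 114 ± 25.5 CPM for sgMTSS1 (SD, n = 3), with a log2-fold change of 0.82 (SE 0.40; adjusted p = 0.256, quasi-likelihood test in edgeR). The 95% interval was −0.08 to 1.72. The value depended on which control pool was used. Without control pool 1, the log2-fold change was 1.56, and without control pool 2 it was 0.36. Each of these fits leaves 1 control pool, so only the size of the difference is given.

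*DCK* (ENSG00000156136, chromosome 4, 70992538 to 71030914, plus strand) had 78 and 49 counts in sgCtrl_1 and sgCtrl_2 and 137, 75, and 70 counts in sgMTSS1_1 to sgMTSS1_3. This corresponds to 24.4 and 14.6 CPM for sgCtrl and 17.8, 13.5, and 12.2 CPM for sgMTSS1. The knockout pools scattered around control pool 2, and only control pool 1 stood higher. On the log2 scale, the fold change was −0.42 (SE 0.36; 95% interval −1.24 to 0.39; adjusted p = 0.529, quasi-likelihood test in edgeR), and it was 0.00 with control pool 1 left out. The mean level of *DCK* was at percentile 51.1 of all tested genes and that of *SLC29A1* at percentile 86.0. *DCK* overlaps *MOB1B* on the same strand, though not in its last exon. *MOB1B* was at 56.3 and 40.2 CPM for sgCtrl and at 21.5 to 27.4 CPM for sgMTSS1, and its part in the *DCK* counts was not tested.

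The ratio of *DCK* to *SLC29A1* counts was 0.269 and 0.374 for sgCtrl against 0.141, 0.159, and 0.0922 for sgMTSS1. Counts of the kinase were thus lower relative to those of the transporter in every knockout pool. Neither gene was called, and how many other gene pairs separate the groups in this way was not counted. The ratio in the knockout was 0.401 of that in the control (exact permutation test, p = 0.2 by the same doubling, and 0.6 after adjustment over 6 ratios). Its log2 difference of −1.32 kept its sign with each library left out (−1.55 to −1.08).

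Of the genes that inactivate araC, *SAMHD1* and *NT5C2* lay lower in every knockout pool, but neither passed the test. *SAMHD1* (ENSG00000101347, chromosome 20, 36890229 to 36951893, minus strand), which hydrolyses dNTPs and the triphosphate of araC, was at 15.3 and 13.7 CPM in sgCtrl_1 and sgCtrl_2 and at 10.2, 12.5, and 9.74 CPM in sgMTSS1_1 to sgMTSS1_3. The highest knockout pool was just below the lowest control pool. The log2-fold change was −0.42 (SE 0.34; 95% interval −1.18 to 0.33; adjusted p = 0.490, quasi-likelihood test in edgeR). *NT5C2* (ENSG00000076685, chromosome 10, 103087185 to 103277605, minus strand), a cytosolic nucleotidase that removes phosphate from nucleoside monophosphates, was at 8.44 and 11 CPM for sgCtrl and at 6.23, 7.58, and 6.26 CPM for sgMTSS1. Its counts were few, between 27 and 48 per library. On the log2 scale, the fold change was −0.54 (SE 0.38; 95% interval −1.39 to 0.31; adjusted p = 0.428, quasi-likelihood test in edgeR).

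The last exons of both genes overlap a gene on the opposite strand. For *SAMHD1* this is *TLDC2*, with 0 to 8 counts per library. For *NT5C2* it is *CNNM2*, which was at 13.4 and 5.36 CPM for sgCtrl and at 12.7 to 20.7 CPM for sgMTSS1, a level above that of *NT5C2* in all libraries but control pool 2. The counts of *NT5C2* and *SAMHD1* are uncertain to that extent.

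Within libraries, *DCK* and the genes that oppose it had count ratios that overlapped between the groups. The ratio of *DCK* to *SAMHD1* counts was 1.59 and 1.07 for sgCtrl against 1.73, 1.09, and 1.25 for sgMTSS1 (exact permutation test, two-sided, p = 0.8). That of *DCK* to *NT5C2* was 2.89 and 1.32 against 2.85, 1.79, and 1.94 (exact permutation p = 1.0). The control pools alone spanned most of the range of both ratios.

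*CDA* (ENSG00000158825, chromosome 1, 20589086 to 20618903, plus strand) was barely detected. It had 13 and 3 counts in sgCtrl_1 and sgCtrl_2 and 3, 13, and 1 counts in sgMTSS1_1 to sgMTSS1_3, or between 0.174 and 4.06 CPM. A level of 3 counts, the smallest taken as measurable, corresponds to 0.389 to 0.938 CPM in these libraries, and 3 of the 5 values were at or below it. The fitted log2-fold change of −1.38 had a 95% interval of −3.61 to 0.86 (quasi-likelihood test in edgeR, adjusted p = 0.445) and became 0.07 without control pool 1. A difference in *CDA* was not detectable at this depth. The ratio of *DCK* to *CDA* varied from 5.77 to 70.0 between knockout pools and was 6 and 16.3 in the control pools (exact permutation test, p = 0.6).

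The anthracycline targets were the most abundant of the 10 mRNAs and did not pass the test. *TOP2A* (ENSG00000131747, chromosome 17, 40388525 to 40417896, minus strand) encodes the topoisomerase II of dividing cells. Its level was 1920 and 4510 CPM in sgCtrl_1 and sgCtrl_2 and 3550, 3390, and 2710 CPM in sgMTSS1_1 to sgMTSS1_3, higher than that of 99.8% of all tested genes. It took between 0.215% and 0.444% of all counts of a library. All knockout pools lay between the control pools. The log2-fold change was 0.00 (SE 0.44, 95% interval −0.99 to 0.99) and took a negative sign under other scalings (−0.02 with RLE factors, −0.08 with upper quartile factors, and −0.10 with library size alone). It was −0.48 without control pool 1 and 0.78 without control pool 2, with control pools that differed 2.36-fold.

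*TOP2B* (ENSG00000077097, chromosome 3, 25597978 to 25664909, minus strand) encodes the form of the enzyme that resting cells also contain. Its level was 376 and 319 CPM in sgCtrl_1 and sgCtrl_2 and 389, 368, and 456 CPM in sgMTSS1_1 to sgMTSS1_3. The groups overlapped at knockout pool 2, and the log2-fold change was 0.22 (SE 0.30; 95% interval −0.45 to 0.89; adjusted p = 0.708, quasi-likelihood test in edgeR). The ratio of *TOP2A* to *TOP2B* counts was 5.10 and 14.1 for sgCtrl against 9.11, 9.21, and 5.95 for sgMTSS1. Again, the knockout pools fell between the control pools (exact permutation test, two-sided, p = 1.0).

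*ABCB1* (ENSG00000085563, chromosome 7, 87503017 to 87713323, minus strand), the P-glycoprotein gene, was expressed in all 5 pools. Its level was 52.8 and 72.1 CPM in sgCtrl_1 and sgCtrl_2 and 52.4, 63.2, and 43.7 CPM in sgMTSS1_1 to sgMTSS1_3. No knockout pool exceeded control pool 2, and knockout pool 2 was above control pool 1. On the log2 scale, the fold change was −0.24 (SE 0.31; 95% interval −0.93 to 0.45; adjusted p = 0.694, quasi-likelihood test in edgeR), and it was 0.03 without control pool 2. *ABCB1* overlaps *RUNDC3B* on the opposite strand outside its last exon.

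**Figure D3:**
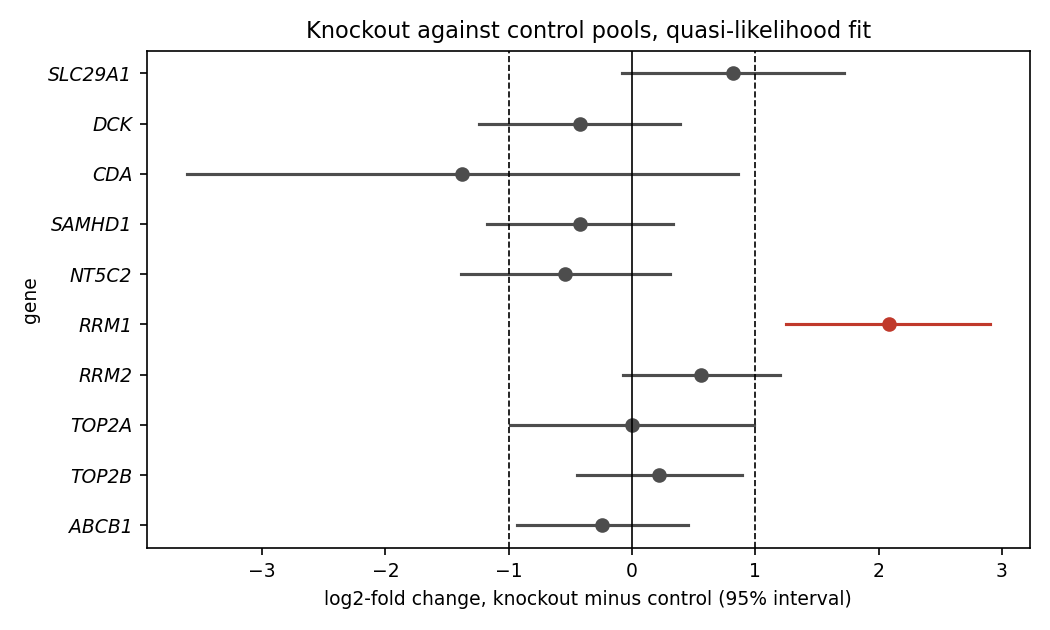
Log2-fold change of the 10 genes between knockout and control pools with its 95% interval from edgeR's quasi-likelihood fit over all 5 libraries. Dashed lines mark −1 and 1, and red marks the gene that passed both thresholds. The interval of *RRM1* runs from 1.25 to 2.90, and the intervals of the other 9 genes include 0.

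To place these genes among others of their pathways, 7 lists were compiled, holding 90 further genes, of which 74 passed the filter on low counts. *NT5C* was the only 1 of the 74 that was differentially expressed, against 5.18% of all tested genes. It passed the filter only through the knockout libraries, and with 10 counts required in every library it was not tested and none of these genes was called. On the log2-fold scale the 74 genes had a median of 0.07, with 43 positive and 31 negative values. All knockout pools lay above both control pools for 19 of them and below for 9, positions that 22.2% and 19.2% of all tested genes took.

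Among deaminases, nucleotidases, and dNTP hydrolases, 1 of 17 tested genes was called, as higher in the knockout, against 4.17% of all tested genes. Of the 17 log2-fold changes, 8 were positive and 9 negative. The list's median was −0.03, which turned to 0.21 without control pool 1. The 1 gene called was *NT5C* (ENSG00000125458, chromosome 17, 75130225 to 75131757, minus strand), a cytosolic nucleotidase that acts on deoxyribonucleotides. It had 4 and 3 counts in sgCtrl_1 and sgCtrl_2 and 206, 83, and 88 counts in sgMTSS1_1 to sgMTSS1_3, or 1.25 and 0.894 CPM against 26.7, 15.0, and 15.3 CPM. *NT5C* was thus near the smallest measurable level in both control pools and clearly present in each knockout pool. It passed the filter only through the knockout libraries, so the test result that follows is a description only. The log2-fold change was 4.13 (SE 0.55; 95% interval 2.89 to 5.36; adjusted p = 0.00799, quasi-likelihood test in edgeR), and with each library left out in turn it was between 3.78 and 4.39. Its last exon overlaps *ARMC7* on the opposite strand, which was at 4.06 and 8.34 CPM for sgCtrl and 6.86 to 10.1 CPM for sgMTSS1 and was not differentially expressed (log2-fold change 0.39). There are 2 pseudogenes named after *NT5C*. *ADA*, adenosine deaminase, had the most negative value of the list among genes with a mean of at least 10 CPM (log2-fold change −0.68, 95% interval −1.47 to 0.10). It was −0.11 without control pool 1 and −1.06 without control pool 2, and its last exon overlaps *PKIG* on the opposite strand.

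In the list of ribonucleotide reductase and de novo dNTP synthesis, *RRM1* was the 1 gene of 12 tested that was called. Of all tested genes, 5.18% were called. The list's median was 0.21 and ran from 0.08 to 0.68 over the alternatives. *TYMS*, thymidylate synthase, had 2 to 12 counts per library and was not tested. Its last exon overlaps *ENOSF1*, on the opposite strand.

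No gene was called among 17 nucleoside and nucleotide kinases (median −0.05), 3 nucleoside transporters (−0.52), 12 topoisomerases and genes of adduct repair (0.07), 10 ABC transporters and vault genes (−0.25), or 13 genes of anthracycline reduction and redox metabolism (0.33). Before adjustment, 3, 0, 0, 1, and 4 genes of these lists, respectively, were under 0.05 in edgeR's test, as were 3359 of all 14391 tested genes (23.3%). By the rule for calling, the share over all tested genes was 5.18%. The lists include those of the 10 genes that belong to them. The median of the ABC transporter list turned to 0.06 without control pool 2 and to 0.15 without a filter on low counts, and that of the redox list fell to 0.05 without knockout pool 1. The medians of the kinase and topoisomerase lists also changed sign under some alternatives. Thymidylate kinase, *DTYMK*, had the most positive value among the kinases, at 27.5 and 14.0 CPM for sgCtrl and 55.4, 39.9, and 47.7 CPM for sgMTSS1. Its log2-fold change of 1.20 did not pass (quasi-likelihood test in edgeR, adjusted p = 0.0929), although it did in DESeq2 (0.0465). *NME6*, a member of the nucleoside diphosphate kinase family whose last exon overlaps *ZNF589* on the opposite strand, was lower in every knockout pool, with a log2-fold change of −0.82 (quasi-likelihood test in edgeR, adjusted p = 0.184).

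Among the redox genes, *NQO1*, a quinone reductase, was at 15.9 and 6.85 CPM for sgCtrl and at 43.5, 19.3, and 26.3 CPM for sgMTSS1. All knockout pools were higher, with a log2-fold change of 1.39 (quasi-likelihood test in edgeR, adjusted p = 0.125). Without control pool 1, which leaves 1 control pool, the log2-fold change was 2.13. *AKR1A1*, an aldo-keto reductase, was lower in every knockout pool (log2-fold change −0.72, adjusted p = 0.158, same test). Among the ABC transporters with a mean of at least 10 CPM, *ABCC5* had a log2-fold change of 0.66 and *ABCC4* of −0.27. The latter turned to 0.06 without control pool 1. Over all 10 tested genes of that list, 4 values were positive and 6 negative, from −1.45 to 0.66. *SLC29A3* (−0.71), *TOP1MT* (0.76), and *NBN* (−0.18) were at the ends of their lists, and their pools overlapped.

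**Figure D4:**
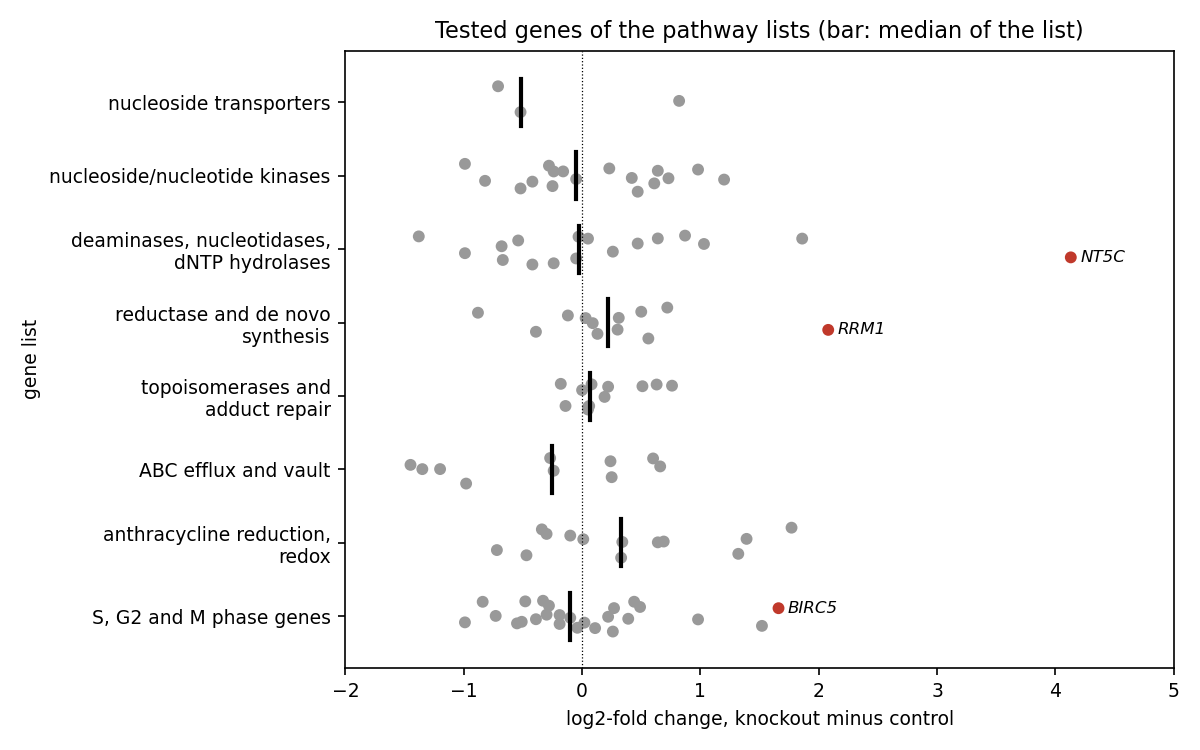
Log2-fold change, knockout minus control, of every tested gene in the 7 pathway lists and in a list of S, G2, and M phase genes. Each point is a gene, black bars are list medians, and red points are the differentially expressed genes *NT5C* (4.13), *RRM1* (2.08), and *BIRC5* (1.66). Points of the other genes lie on both sides of 0 in every list.

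As *RRM1*, *RRM2*, and *TOP2A* are expressed with the cell cycle, genes of S, G2, and M phase were examined alongside. Their summed level was 6170 and 5330 CPM for sgCtrl and 4780, 5240, and 4760 CPM for sgMTSS1, lower in each of the latter. Knockout pool 2 was close to control pool 2, and abundant genes weigh most in the sum. All knockout pools lay above both control pools for 4 of the tested genes and below both for 6. Of all tested genes, 22.2% and 19.2% took these positions. Of 25 tested genes, 11 had a positive and 14 a negative log2-fold change, with a median of −0.10, which was 0.10 without control pool 1. In edgeR, 1 of the 25 was called, against 5.18% of all tested genes. The apoptosis inhibitor gene *BIRC5* was the only 1 that passed in edgeR, at 102 and 53.0 CPM for sgCtrl and 297, 228, and 209 CPM for sgMTSS1 (log2-fold change 1.66, quasi-likelihood test in edgeR, adjusted p = 0.0380). It failed without any 1 of the knockout pools, with adjusted p-values of 0.074 to 0.113 from the same test. Without control pool 2, which leaves 1 control pool, its log2-fold change was 1.29. The replication helicase gene *MCM5* had the most negative value, with a log2-fold change of −0.99 (adjusted p = 0.0845, same test), and it passed both thresholds in DESeq2 (−1.01, adjusted p = 0.0423).

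Genes with the pattern closest to that of *DCK*, *RRM2*, and *TOP2A* were sought among 8624 tested genes with a mean of at least 10 CPM, by the root mean square difference of log2 CPM centred on the mean of the 5 libraries. For *DCK* these were *TMEM106B* (0.0347), *ZBED5* (0.0565), and *PNRC1* (0.0571). For *RRM2* they were *SRP68* (0.0506), *ERCC6* (0.0670), and *SEMA4D* (0.0678), and for *TOP2A*, *PFDN6* (0.0611), *TMED3* (0.0639), and *TMEM219* (0.0650). For comparison, the log2 CPM of *DCK*, *RRM2*, and *TOP2A* had standard deviations of 0.383, 0.332, and 0.465 over the same libraries. For *RRM1*, which was added after its values were seen, *EMC9* (0.0823), *MARCHF5* (0.124), and *TAF9B* (0.133) were closest, against a standard deviation of 1.21. *MARCHF5*, for instance, was at 14.7 and 8.64 CPM for sgCtrl and 67.2, 59.9, and 52.7 CPM for sgMTSS1. With 5 libraries and 8624 genes, closeness is a description only.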

How the data were processed

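RNA was extracted from TF-1 clone pools, 2 control and 3 *MTSS1* knockout. The authors prepared QuantSeq 3′ libraries, trimmed single-end reads with BBDuk, aligned them to GRCh38 with HISAT2 2.1.0, removed reads without a unique position with SAMtools 1.10. The values they deposited are raw counts for each Ensembl gene, not normalized. The counting program, annotation release, and use of strand are not given in the sources used here. The reads carry no molecular identifiers in the sources used here, so count limits cover counting error only.

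From these, edgeR 4.0.16 (R 4.3.3) was used for all main results. filterByExpr (minimum count 10) kept 14391 of 27328 genes, TMM factors were 0.876 to 1.13, and the quasi-likelihood test held the condition alone. P-values were adjusted over all tested genes by the Benjamini-Hochberg method. Differential expression required an adjusted p under 0.05 with a log2-fold change beyond 1 in either direction. The SE was taken as the absolute log2-fold change divided by the square root of the test's F statistic. Intervals use this SE and the t distribution with the moderated degrees of freedom. Alternatives were DESeq2 1.42.0, limma-voom (limma 3.58.1), other scalings, filters, and thresholds, thinned libraries, robust estimation, a replicate block, and each library left out. The test was also run on simulated counts with 4-fold changes in 200 genes, whose outcome is not given here. That simulation did not include the differences in mitochondrial and ribosomal protein shares between the groups. Gene names and positions are from GENCODE 44.

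The genes, lists, and tests were chosen with earlier results of these data known. Other genes named are, per list, those called and those with the largest rise and fall at a mean of at least 10 CPM, and the closest patterns. A gene selected by this rule is not reported here. *CNNM2* and other overlapping genes, *TYMS*, and the patterns closest to *RRM1* were added after values were seen. Pool numbers 1 and 2 occur in both groups, but nothing says that equally numbered pools were handled together. P-values of edgeR's test rest on the spread between these pools, moderated over all tested genes. Between knockout pools that spread includes the sgRNA, which differs from pool to pool, whereas the control pools share theirs.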

Additional observations from a re-analysis of the deposited data

How the results depend on the processing

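Among settings that kept both control pools, *RRM1* was called in all but those without knockout pool 1 or 3. Its log2-fold change was 1.72 to 2.61 with a library left out. Over all genes, 745 genes were called, 111 to 1349 with a library left out, 1343 in DESeq2, 1374 without a filter on low counts, and 1531 at an adjusted p under 0.1. With a knockout pool left out, 0 or 1 of the 10 genes was called. Calls without a control pool, which leave 1 control pool, are not counted here. Of the further genes of the 7 lists, *NT5C* was called in all settings that tested it and kept both control pools. It passed the filter only through the knockout libraries, so these calls are not independent support. With any 1 knockout pool left out, 1 was called. DESeq2 called 3 (*DTYMK*, *ITPA*, *NT5C*), limma-voom 2 and library size alone 2 (*ITPA*, *NT5C*), no filter on low counts 4, an adjusted p under 0.1 gave 3, and 10 counts in every library 0, since *NT5C* was then not tested. *ITPA* was named after its values were seen.

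With the replicate block, in which knockout pool 3 does not enter the contrast, 1094 genes were called (894 higher, 200 lower), 1 of the 10 genes (*RRM1*, log2-fold change 2.20), and 4 of the further genes (*AKR1C1*, *ITPA*, *NQO1*, *NT5C*). Differences between pools 1 and 2 had a Pearson's r of 0.17 between the groups, across genes, from 2 numbers only. The block turned the *TOP2A*/*TOP2B* log2 ratio difference from −0.10 to 0.11.

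For single genes and ratios, signs that turned belonged to values near 0 or to single control pools. The median of the ABC transporter list also turned without a filter on low counts, from −0.25 to 0.15. Without control pool 1 and without control pool 2, respectively, the log2-fold change was 0.00 and −0.72 for *DCK*, 0.07 and −2.07 for *CDA*, −0.48 and 0.78 for *TOP2A*, 0.06 and −0.51 for *ABCC4*, 0.45 and −0.59 for *NBN*, 0.16 and −1.04 for *MTSS1*, and −0.43 and 0.03 for *ABCB1*, the ends of their ranges with a library left out. *TOP2A* was also at −0.02 in DESeq2, with RLE factors, in thinned libraries, and without knockout pool 2, at −0.09 without knockout pool 1, at −0.08 with upper quartile factors, and at −0.10 with library size alone, which moved the median of all genes from −0.03 to −0.17. With a library left out, the log2 ratio difference ran from −0.83 to 0.64 for *TOP2A*/*TOP2B* (0.11 without knockout pool 3), from −0.26 to 0.32 for *DCK*/*SAMHD1* (−0.16 without knockout pool 1), and from −0.43 to 0.70 for *DCK*/*NT5C2* (−0.07 without knockout pool 1). The causes were not tested. *CDA*, with 1 to 13 counts per library, was not tested in the thinned libraries.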
